A study of Homo sapiens with 12 samples.

Results

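The 36 genes described here encode aminoacyl-tRNA synthetases, 20 listed as cytosolic and 16 listed as mitochondrial. They were taken by gene symbol from a table of 24302 features, where each was found on 1 row. The cells were KYSE150, a human cell line established from a squamous cell carcinoma of the esophagus. A control group of 3 libraries carried GFP, and 3 further groups of 3 libraries carried GFP-tagged TFAP2β: the unaltered protein (WT), a form mutated in the region IDR3 (Mut_IDR3) and a form that lacks IDR3 (ΔIDR3, here dIDR3). The study asked which downstream genes relate to phase separation by TFAP2β, the AP-2 family transcription factor encoded by TFAP2B; IDR stands for an intrinsically disordered region, and the labels describe both altered forms as deficient in phase separation. All groups share the GFP tag and the line's own genotype. The residues altered in Mut_IDR3, the promoter of the construct, the time after its delivery and whether each group is a pool or a single clone are not given in the sources used here.

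Aminoacyl-tRNA synthetases join each amino acid to its tRNA, which is the step that gives the genetic code its meaning. A cytosolic set charges tRNAs for the ribosomes of the cytosol, and a set encoded mostly by separate nuclear genes, with a 2 after the amino acid's name, is imported into mitochondria. A gene that serves both compartments stands in only the cytosolic or the mitochondrial list used here. KARS (lysine) and GARS (glycine) stand in the cytosolic list, and the members include no separate mitochondrial gene for these amino acids. Several cytosolic enzymes sit with the scaffold proteins AIMP1, AIMP2 and EEF1E1 in the multisynthetase complex. Uncharged tRNA activates the kinase GCN2 and, through it, the transcription factor ATF4, which raises amino acid synthesis and transport genes and also many cytosolic synthetases. WARS, the tryptophanyl-tRNA synthetase, is in addition a classical interferon-inducible gene.

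The libraries held 30652851 to 43464956 counts each. TFAP2B RNA was 0.124 ± 0.142 CPM (counts-per-million, scaled to library size; mean ± SD, n = 3) in the GFP libraries, 280.3 ± 45.6 in WT, 702 ± 25.9 in Mut_IDR3 and 704 ± 62.8 in dIDR3, which separates the GFP libraries from the 9 with a TFAP2β form. A count of the gene does not show which form a library carries, so the labels WT, Mut_IDR3 and dIDR3 were not checked. Both altered forms were at a higher RNA level than WT, and in the comparisons with WT the alteration and the level cannot be told apart. All 10 squamous epithelial markers were at 1 CPM or more, 0 of 6 leukocyte and 0 of 4 endothelial markers were, and 1 of 7 fibroblast markers was. The summed CPM of the fibroblast markers ran from 2.61 to 3.68 with GFP and from 5.34 to 6.56 with WT. The summed squamous markers ran from 5465 to 5702 CPM with GFP, 6913 to 8064 with WT, 5518 to 5692 with Mut_IDR3 and 4699 to 4951 with dIDR3. By gene, in the test described below, 5 of the 10 were higher and 4 lower with WT against GFP. Of all tested genes 27.7% were higher and 27.1% lower, so the sum does not stand for each marker. The part of these shifts in the results was not tested. Nothing in the labels says that the 3 libraries of a group came from separate cultures, so p-values measure the spread between these libraries, which may be technical. In RNA from bulk cultures, fewer cells of a type and less RNA per cell cannot be told apart.

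WT TFAP2β was accompanied by changes of synthetase mRNA in both directions. One gene stood apart: WARS was 3.42-fold higher with WT than with GFP and its difference from GFP did not pass the test with either altered form. In the other direction EPRS, the bifunctional enzyme for glutamate and proline, was 2.53-fold lower, and LARS (leucine), NARS (asparagine), TARS (threonine) and the mitochondrial RARS2 (arginine) also fell. The other called changes were smaller, and 14 of the 36 did not pass the test.

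A member is counted as higher or lower when edgeR's quasi-likelihood test gave a Benjamini-Hochberg adjusted p under 0.05 over 14792 tested genes, all 36 members among them. With WT against GFP, 11 members (30.6%) were higher and 11 (30.6%) lower, where 27.7% of all tested genes were higher and 27.1% lower. With Mut_IDR3 against GFP, 7 (19.4%) were higher and 3 (8.33%) lower, beside 11.2% and 9.85% of all genes. With dIDR3 against GFP, 9 (25%) were higher and 3 (8.33%) lower, beside 15.6% and 13.4%. Against WT, Mut_IDR3 had 13 members (36.1%) higher and 6 (16.7%) lower, beside 23.2% and 20.9% of all genes, and dIDR3 had 14 (38.9%) higher and 9 (25%) lower, beside 27.2% and 25%. Between the altered forms, Mut_IDR3 had 5 members (13.9%) higher and 4 (11.1%) lower than dIDR3, beside 5.54% and 5.24%. The shares of members in WT against GFP were near those of all genes. That split depended on the processing: with the trend of fold change over transcript GC content removed, 5 members were higher and 17 lower with WT against GFP, beside 24% and 23.4% of all genes. The comparisons against GFP share the GFP libraries and those against WT share the WT libraries, so they are not independent. WT against GFP also shares the WT libraries with the comparisons against WT. The median log2 fold change of the members was -0.03 with WT, 0.05 with Mut_IDR3 and 0.02 with dIDR3 against GFP, and that of all tested genes was -0.01, -0.01 and -0.02. The sign of the WT and dIDR3 medians was not stable: leaving out 1 library gave medians of -0.02 to 0.01 with WT, 0.02 to 0.05 with Mut_IDR3 and -0.01 to 0.03 with dIDR3. The WT median was above 0 without GFP replicate 1 or 3 or WT replicate 3, and the dIDR3 median below 0 without GFP replicate 1 or dIDR3 replicate 1.

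**Figure D1:**
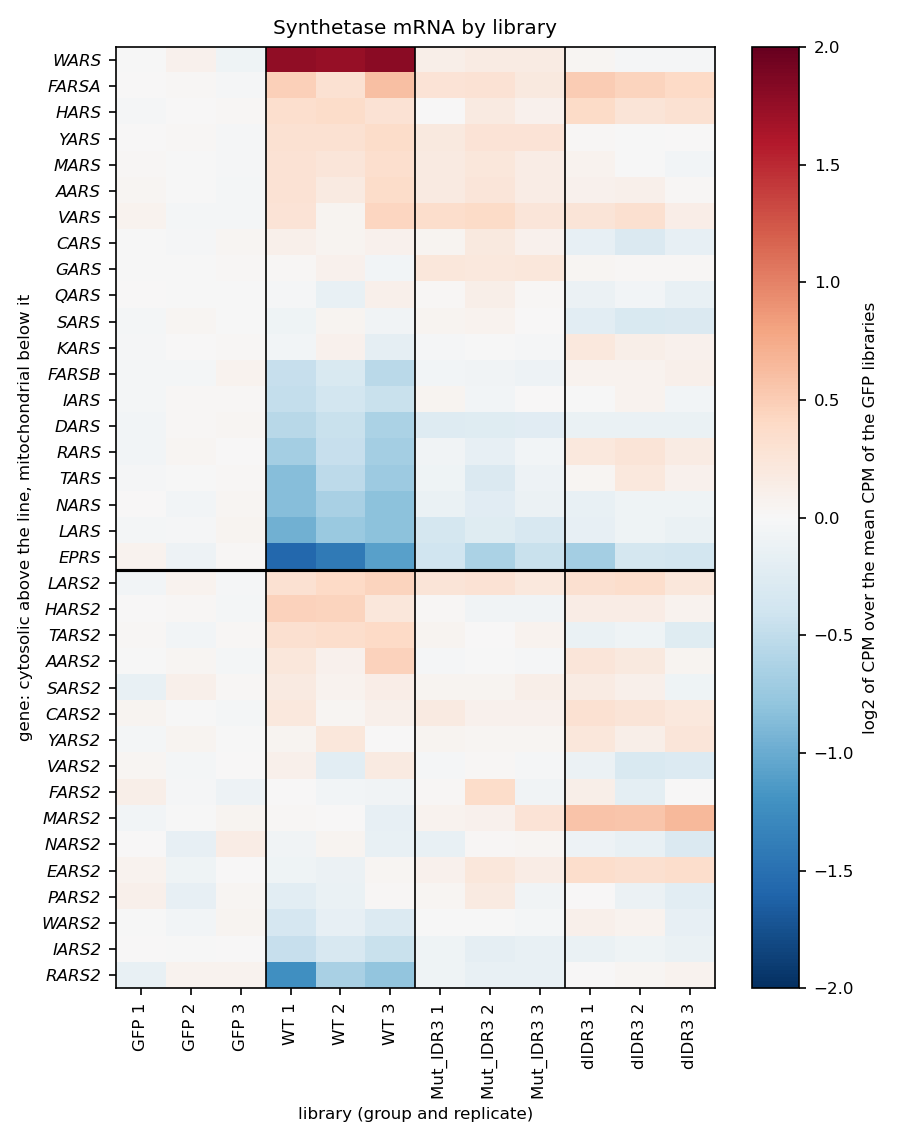
Level of each of the 36 synthetase mRNAs (y axis, cytosolic above the line and mitochondrial below it) in each of the 12 libraries (x axis), as colour for log2 of CPM over the mean CPM of the 3 GFP libraries. WARS is dark red in the 3 WT libraries and pale in all others, and EPRS, LARS, NARS, TARS and RARS2 are blue in the 3 WT libraries.

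The promoters of the members are shown first for WARS, because it changed most. RefSeq promoters on GRCh38.p14, each from 250 bases before to 50 bases after a start site, were found for 30 of the 36 members, 39 sequences in all. WARS lies on chromosome 14, 100333788 to 100376805 of GRCh38 on the minus strand and has a pair of start sites in RefSeq. The promoter of the downstream start site holds the letters TTCNNNGAA of a gamma interferon activated site (GAS), 142 bases before the start, at chr14:100375471-100375499 with its flanks. It also holds the core GAAANNGAA of the interferon-stimulated response element (ISRE), 55 bases before the start, at chr14:100375384-100375412. The upstream promoter holds the AP-2 consensus GCCNNNGGC at chr14:100376506-100376534. Capitals mark the motif, and each line reads 5′ to 3′ on the strand of the gene.
WARS downstream promoter, GAS letters: gctcaagtgtTTCTGAGAAtctgggtgat
WARS downstream promoter, ISRE core: tttcagaaggGAAACTGAAagaaagaggg
WARS upstream promoter, AP-2 letters: ggcccctccaGCCCGGGGCccgccgctca

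Both strands were searched for every motif. The GAS letters were in 17.9% of the 39 member promoters, in 7.66% of all 35116 RefSeq promoters of the same length and in 6.79% of those of protein-coding genes. The ISRE core was in 12.8% of member promoters, 8.11% of all and 7.09% of coding ones. By gene these were 5 and 4 of the 30 members. A single GAS site of WARS2 and a single ISRE site of EARS2 each counted in 2 overlapping promoters. The AP-2 letters were in 9 of the 39 member promoters (23.1%), in 23.2% of all promoters and in 27.3% of coding ones. The genes with them were AARS, GARS, TARS, WARS, CARS2, FARS2, LARS2, MARS2 and PARS2, and the 2 matches in GARS share bases. In WT against GFP, 3 of these 9 were higher (AARS, WARS and LARS2), TARS was lower and the other 5 were not called. Of all tested genes 27.7% were higher and 27.1% lower. With the GC trend removed, AARS was not called, and CARS2, FARS2 and PARS2 were called lower. These matches describe letters in a window, not binding.

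WARS had 173, 184 and 164 CPM in the GFP libraries, 594, 579.6 and 609 in WT, 187, 195 and 194 in Mut_IDR3 and 179, 170.4 and 169.9 in dIDR3. The 3 WT libraries lay above the 9 others, with no overlap. On the log2 scale WT differed from GFP by 1.78 (SE 0.05, adjusted p = 1.57e-12). The values for Mut_IDR3 and dIDR3 against GFP were 0.15 (adjusted p = 0.0501) and -0.00314 (adjusted p = 0.972), and neither passed the test. The Mut_IDR3 difference did pass with upper-quartile scaling, DESeq2, limma-voom or a fit of only the 2 groups. Against WT, WARS was at -1.63 log2 with Mut_IDR3 and -1.78 with dIDR3, the largest changes of any member in those comparisons. Per kilobase of its longest coding transcript, WARS stood at rank 16 of 36 with GFP, at 56.1 ± 3.24 RPKM, which is CPM per kilobase. With WT it reached 192 ± 4.75 RPKM, beside 215 ± 19 for KARS, the lysine enzyme, and 179 ± 10.1 for SARS, the serine enzyme. Exons of WARS share 287 bases with the opposite-strand gene WDR25, which held 4858 counts over the 12 libraries against 127762 for WARS. Its mitochondrial counterpart WARS2, which charges tryptophan to mitochondrial tRNA, was lower with WT as scaled but at 0.06 (adjusted p = 0.551) with the GC trend removed. WARS2 had 47.8, 45.9 and 50 CPM in the GFP libraries, 38.1, 42.6 and 39.7 in WT, 47.4, 47.7 and 46.4 in Mut_IDR3 and 51.6, 50.2 and 42.8 in dIDR3, and WT differed from GFP by -0.26 (SE 0.08, adjusted p = 0.012).

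**Figure D2:**
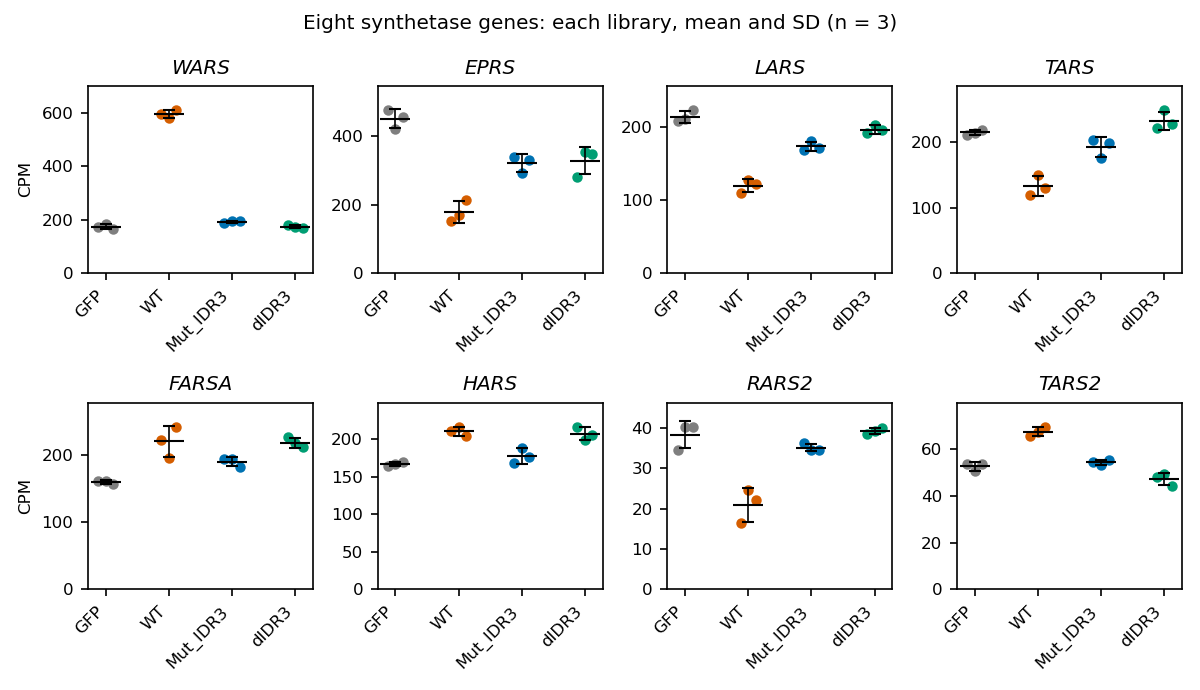
CPM (y axis, from 0) of 8 synthetase mRNAs in each library by group (x axis), with the mean and SD of 3 libraries as black marks. The WT libraries of WARS lie at 580 to 609 CPM above all others, and those of EPRS, LARS, TARS and RARS2 lie below all others.

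The other 6 cytosolic members that rose with WT did so by 0.26 to 0.46 log2. FARSA encodes the alpha subunit of the phenylalanine enzyme. It had 161, 162 and 156 CPM in the GFP libraries, 222, 196 and 242 in WT, 193, 194 and 182 in Mut_IDR3 and 226, 218 and 211 in dIDR3, a change of 0.46 (SE 0.06, adjusted p = 2.35e-05) with WT against GFP. All 9 libraries with a TFAP2β form were above the 3 GFP libraries. Its partner FARSB, the beta subunit of the same enzyme, moved in the opposite direction, by -0.43 (SE 0.06, adjusted p = 2.58e-05). FARSB had 106, 106 and 115 CPM in the GFP libraries, 79.1, 88.8 and 75.4 in WT, 105, 105 and 101 in Mut_IDR3 and 115, 115 and 117 in dIDR3. The 2 subunits form 1 enzyme, and their mRNAs changed unequally in the WT libraries; with the GC trend of all genes removed, described with the GC values, FARSB was at -0.03 (adjusted p = 0.588). HARS, the histidine enzyme, had 164, 167 and 169.7 CPM in the GFP libraries, 211, 217 and 205 in WT, 168, 189 and 177 in Mut_IDR3 and 217, 199.9 and 206 in dIDR3. It was higher with WT by 0.34 (SE 0.05, adjusted p = 5.97e-05) and with dIDR3 by 0.31 (adjusted p = 0.000452), while the Mut_IDR3 libraries reached down to the GFP range, at 0.09 (adjusted p = 0.231).

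YARS, the tyrosine enzyme, had 312, 317 and 304 CPM in the GFP libraries, 383, 384 and 401 in WT, 358, 378 and 376 in Mut_IDR3 and 315, 310.0 and 314 in dIDR3. It was 0.32 (SE 0.04, adjusted p = 1.36e-05) with WT against GFP and 0.25 (adjusted p = 0.00133) with Mut_IDR3, while the dIDR3 libraries lay inside the GFP range. MARS, the methionine enzyme, had 415, 408 and 403 CPM in the GFP libraries, 498, 484 and 513 in WT, 461, 479 and 452 in Mut_IDR3 and 427, 407 and 392 in dIDR3, which gave 0.29 (SE 0.05, adjusted p = 8.28e-05) with WT and 0.18 (adjusted p = 0.0118) with Mut_IDR3. AARS, the alanine enzyme, had 401, 388 and 381 CPM in the GFP libraries, 476, 441 and 502 in WT, 442, 461 and 434 in Mut_IDR3 and 414, 419 and 397 in dIDR3. It changed by 0.28 (SE 0.05, adjusted p = 0.000311) with WT, and the WT and Mut_IDR3 libraries overlapped. VARS, the valine enzyme, was higher with all 3 forms, by 0.26 (adjusted p = 0.0137) with WT, 0.32 (adjusted p = 0.0123) with Mut_IDR3 and 0.23 (adjusted p = 0.0417) with dIDR3. The WT call for VARS was lost without WT replicate 3, where the value was 0.17 (adjusted p = 0.0742). FARSA, VARS and the mitochondrial LARS2 were the members higher in all 3 comparisons with GFP. With Mut_IDR3, FARSA, VARS and MARS lost the call without GFP replicate 3 or Mut_IDR3 replicate 2, at 0.23 to 0.24 (adjusted p = 0.0582 to 0.0599), 0.29 (adjusted p = 0.0566 to 0.06) and 0.16 to 0.17 (adjusted p = 0.0596 to 0.0632). With dIDR3, VARS lost it when any of 5 of the 6 libraries was left out, at 0.18 to 0.26 (adjusted p = 0.0533 to 0.169), the exception being dIDR3 replicate 3. With the GC trend removed, the WT rises of YARS, MARS, AARS and VARS were not called, at 0.04 (adjusted p = 0.454), 0.07 (adjusted p = 0.13), 0.06 (adjusted p = 0.258) and -0.08 (adjusted p = 0.217). MARS and AARS also lost the call with Mut_IDR3 against GFP, at 0.08 (adjusted p = 0.132) and 0.09 (adjusted p = 0.154).

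The 8 cytosolic members that fell with WT were EPRS, LARS, NARS, TARS, RARS, DARS, IARS and FARSB. EPRS had 476, 421 and 456 CPM in the GFP libraries, 152, 169.7 and 213 in WT, 341, 291 and 331 in Mut_IDR3 and 282, 355 and 349 in dIDR3. The WT libraries were the lowest, the GFP libraries the highest and those of the altered forms lay between them without overlap. EPRS fell by 1.34 log2 with WT against GFP (SE 0.11, adjusted p = 1.63e-07), and its values with Mut_IDR3 and dIDR3 were -0.49 (adjusted p = 0.00678) and -0.46 (adjusted p = 0.00614). EPRS was the only member lower in all 3 comparisons with GFP. LARS had 209, 211 and 223 CPM in the GFP libraries, 110.0, 128 and 122 in WT, 169, 181 and 171 in Mut_IDR3 and 192, 203 and 196 in dIDR3. It changed by -0.84 (SE 0.06, adjusted p = 2.55e-08) with WT and -0.30 (adjusted p = 0.00274) with Mut_IDR3, and its value with dIDR3 was -0.12 (adjusted p = 0.127), not past the test. LARS was higher with dIDR3 than with Mut_IDR3 in every library, but that difference did not pass the test, at -0.18 (adjusted p = 0.0587).

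NARS had 223, 215 and 228 CPM in the GFP libraries, 123, 142 and 126 in WT, 203, 191 and 205 in Mut_IDR3 and 200.3, 209 and 210.1 in dIDR3, and its WT change was -0.77 (SE 0.06, adjusted p = 5.26e-08). TARS had 212, 215 and 218 CPM in the GFP libraries, 119, 150.3 and 130.4 in WT, 203, 175 and 199 in Mut_IDR3 and 221, 249 and 228 in dIDR3, and its WT change was -0.69 (SE 0.08, adjusted p = 3.44e-06). In both genes the WT libraries lay below all 9 others. RARS, which charges arginine in the cytosol, had 235, 253 and 247 CPM in the GFP libraries, 154, 179 and 154 in WT, 234, 219.6 and 235 in Mut_IDR3 and 282, 293 and 275 in dIDR3. It fell with WT, at -0.60 (SE 0.06, adjusted p = 1.15e-06), and with dIDR3 it was above GFP, at 0.21 (adjusted p = 0.017). The latter call was lost without GFP replicate 1 or 3 or dIDR3 replicate 1 or 2, at 0.17 to 0.20 (adjusted p = 0.0673 to 0.103). DARS, the aspartate enzyme, had 128, 136 and 137 CPM in the GFP libraries, 90.6, 97.6 and 86.4 in WT, 112, 113 and 114 in Mut_IDR3 and 121, 122 and 121 in dIDR3, with -0.55 (SE 0.05, adjusted p = 6.26e-07) for WT and -0.24 (adjusted p = 0.00533) for Mut_IDR3. IARS, the isoleucine enzyme, had 395, 409 and 409 CPM in the GFP libraries, 289, 312 and 297 in WT, 419.6, 389 and 405 in Mut_IDR3 and 403, 426 and 389 in dIDR3, with -0.43 (SE 0.05, adjusted p = 3.52e-06) for WT. The 6 IARS libraries of the altered forms overlapped the GFP range. These genes were picked as lower in the WT libraries, which are also the reference for the altered forms. A higher value of a form against WT was therefore favoured in advance. All 8 were higher with Mut_IDR3 and with dIDR3 than with WT, by 0.30 to 0.85 and 0.41 to 0.88 log2. DARS lost both of these calls with the GC trend removed, at 0.07 (adjusted p = 0.224) and 0.10 (adjusted p = 0.0611). Its change with WT against GFP was then -0.15 (adjusted p = 0.00812). DARS and LARS also lost the call with Mut_IDR3 against GFP in that setting, at -0.08 (adjusted p = 0.196) and -0.14 (adjusted p = 0.0509).

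**Figure D3:**
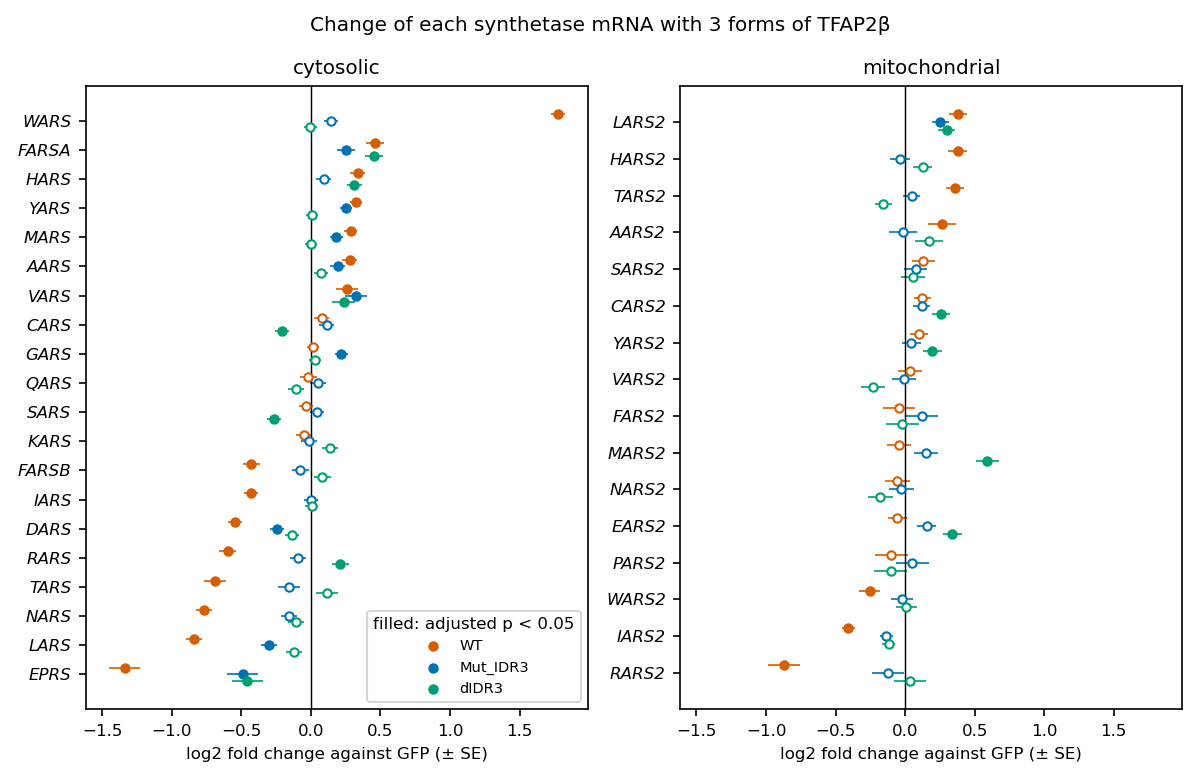
Log2 fold change against GFP with its standard error (x axis) for each cytosolic and mitochondrial synthetase (y axis) with WT, Mut_IDR3 and dIDR3, filled where adjusted p was under 0.05. The WT points span -1.34 for EPRS to 1.78 for WARS, and the points of the altered forms stay between -0.49 and 0.59.

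Among the 16 mitochondrial members, 4 rose (25%) and 3 fell (18.8%) with WT against GFP, beside 27.7% and 27.1% of all genes. The balance turned with the GC trend removed, where 2 were higher and 7 lower, beside 24% and 23.4%. RARS2 had 34.6, 40.3 and 40.2 CPM in the GFP libraries, 16.4, 24.5 and 22.2 in WT, 36.3, 34.7 and 34.6 in Mut_IDR3 and 38.6, 39.3 and 40.2 in dIDR3, and its change with WT was -0.87 (SE 0.12, adjusted p = 1.58e-05), the largest of the 16. IARS2, the most abundant mitochondrial member per length at 154 ± 0.379 RPKM with GFP, had 549, 547 and 549 CPM in the GFP libraries, 396, 438 and 405 in WT, 518, 484 and 497 in Mut_IDR3 and 499, 515 and 502 in dIDR3 and changed by -0.41 (SE 0.05, adjusted p = 3.53e-06). In both genes the 3 WT libraries were below all others. With WARS2, these were the 3 that fell.

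LARS2, the mitochondrial leucine enzyme, had 48.1, 52.4 and 49 CPM in the GFP libraries, 61.7, 65.4 and 67.7 in WT, 59.9, 60.6 and 57.9 in Mut_IDR3 and 62.5, 63.4 and 58.1 in dIDR3. It was higher with each form, by 0.38 (adjusted p = 0.000117), 0.25 (adjusted p = 0.0119) and 0.30 (adjusted p = 0.0027). The Mut_IDR3 call was lost without GFP replicate 1 or 3 or Mut_IDR3 replicate 2, at 0.22 to 0.24 (adjusted p = 0.0534 to 0.0585), and with the GC trend removed, at 0.15 (adjusted p = 0.0748). LARS2 rose with WT while its cytosolic counterpart LARS fell. HARS2, the histidine enzyme of mitochondria, had 47.8, 48 and 46.2 CPM in the GFP libraries, 64.9, 64.2 and 55.3 in WT, 48.3, 45 and 45 in Mut_IDR3 and 52.5, 52.5 and 49.9 in dIDR3, a WT change of 0.38 (SE 0.07, adjusted p = 0.000349). HARS and HARS2 lie head to head and share 437 exonic bases on opposite strands. Since the strand setting of the counting is not given in the sources used here, part of the reads of either could have been given to the other. TARS2 had 53.8, 50.5 and 53.8 CPM in the GFP libraries, 65.8, 67.3 and 69.5 in WT, 54.6, 53.2 and 55.5 in Mut_IDR3 and 48.1, 49.5 and 44.4 in dIDR3, a WT change of 0.36 (SE 0.06, adjusted p = 0.000178) whereas the cytosolic TARS fell. TARS2 with the GC trend removed was at 0.09 (adjusted p = 0.225). With dIDR3, TARS2 lay below GFP in every library at -0.16 (adjusted p = 0.076), which missed the threshold. It was called lower with upper-quartile scaling, with DESeq2 and without GFP replicate 2 or dIDR3 replicate 2. The GC trend removed also gave that call, at -0.24 (adjusted p = 0.0067). AARS2 was among the lowest members, with 14.6, 15.1 and 14.3 CPM in the GFP libraries, 17.2, 15.5 and 20.2 in WT, 14.4, 14.7 and 14.4 in Mut_IDR3 and 17.4, 16.9 and 15.2 in dIDR3. Its WT change was 0.27 (SE 0.10, adjusted p = 0.0358), and the call was lost when any of the 6 libraries except WT replicate 2 was left out, at 0.16 to 0.29 (adjusted p = 0.0519 to 0.211). The call for WARS2 was lost without GFP replicate 3 or WT replicate 1, at -0.22 (adjusted p = 0.0558 to 0.062).

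A further 14 members did not pass the test with WT against GFP: CARS, GARS, KARS, QARS, SARS, CARS2, EARS2, FARS2, MARS2, NARS2, PARS2, SARS2, VARS2 and YARS2. Their log2 fold changes ran from -0.10 for PARS2 to 0.13 for SARS2. QARS (glutamine), FARS2 (phenylalanine), NARS2 (asparagine), PARS2 (proline) and SARS2 (serine) were called in none of the 6 comparisons. MARS2, the mitochondrial methionine enzyme, changed with dIDR3 alone among the comparisons against GFP: it had 18.5, 19 and 20 CPM in the GFP libraries, 19.4, 19.4 and 17 in WT, 20.1, 20.4 and 23.3 in Mut_IDR3 and 28.4, 28.2 and 30.1 in dIDR3. The 3 dIDR3 libraries were above the other 9, at 0.59 (SE 0.09, adjusted p = 0.00014) against GFP and -0.44 (adjusted p = 0.00464) for Mut_IDR3 against dIDR3. EARS2, which charges glutamate in mitochondria, was also higher with dIDR3 than with GFP, by 0.34 (adjusted p = 0.00165). CARS2 was at 0.26 (adjusted p = 0.00651) and YARS2 at 0.20 (adjusted p = 0.0358) in that comparison. The YARS2 call was lost when any of the 6 libraries except dIDR3 replicate 2 was left out, at 0.15 to 0.20 (adjusted p = 0.077 to 0.176).

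Transcript GC content moved with the change. Over the 12724 tested genes with a GC value, Spearman's rho between GC content and the log2 fold change was 0.52 for WT, 0.44 for Mut_IDR3 and 0.20 for dIDR3 against GFP. Over the 36 members it was 0.72, 0.70 and 0.13, a description over genes that share the same libraries. The 18 members with a GC content of 50% or more had a median log2 fold change of 0.19 with WT, and the 18 below 50% had -0.42. All 11 members that fell with WT had a GC content under 45%, from 41.2% for DARS to 44.3% for NARS. The part of the GC trend in single members was not tested. When the trend of all genes was removed, WARS stayed higher at 1.60 (adjusted p = 6.63e-13), and FARSA, HARS, HARS2 and LARS2 were the other 4 that remained higher. The falls that remained were those of EPRS at -1.02 (adjusted p = 4.15e-06), NARS at -0.56 (adjusted p = 6.41e-08), TARS at -0.48 (adjusted p = 2.19e-05), RARS2 at -0.48 (adjusted p = 0.00077), LARS at -0.44 (adjusted p = 2.31e-06), IARS at -0.22, IARS2 at -0.20, RARS at -0.20 and DARS at -0.15. The rises of AARS, MARS, VARS, YARS, AARS2 and TARS2 and the falls of FARSB and WARS2 were no longer called; VARS, AARS2 and WARS2 changed sign, at -0.08, -0.05 and 0.06. The opposite calls of FARSA and FARSB were thus not seen in that setting.

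With the GC trend removed, 8 more members passed the test as lower with WT: CARS, QARS, SARS, CARS2, EARS2, FARS2, PARS2 and VARS2. Mut_IDR3 against WT then had 19 higher and 4 lower, beside 20.9% and 20% of all genes. dIDR3 against WT had 17 higher and 8 lower, beside 25.5% and 23.1%. In that setting 4 were higher and 1 lower with Mut_IDR3 against GFP, beside 8.92% and 5.94%, and 10 were higher and 6 lower with dIDR3 against GFP, beside 17.9% and 14%. Between the altered forms 6 were higher with Mut_IDR3 and 9 lower, beside 6.66% and 7.8%. The median of the members went from -0.03 to -0.11 with WT against GFP, from 0.07 to 0.15 with Mut_IDR3 against WT and from 0.01 to 0.17 with dIDR3 against WT. All-gene medians in that setting were -0.02, 0.02 and 0.02.

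**Figure D4:**
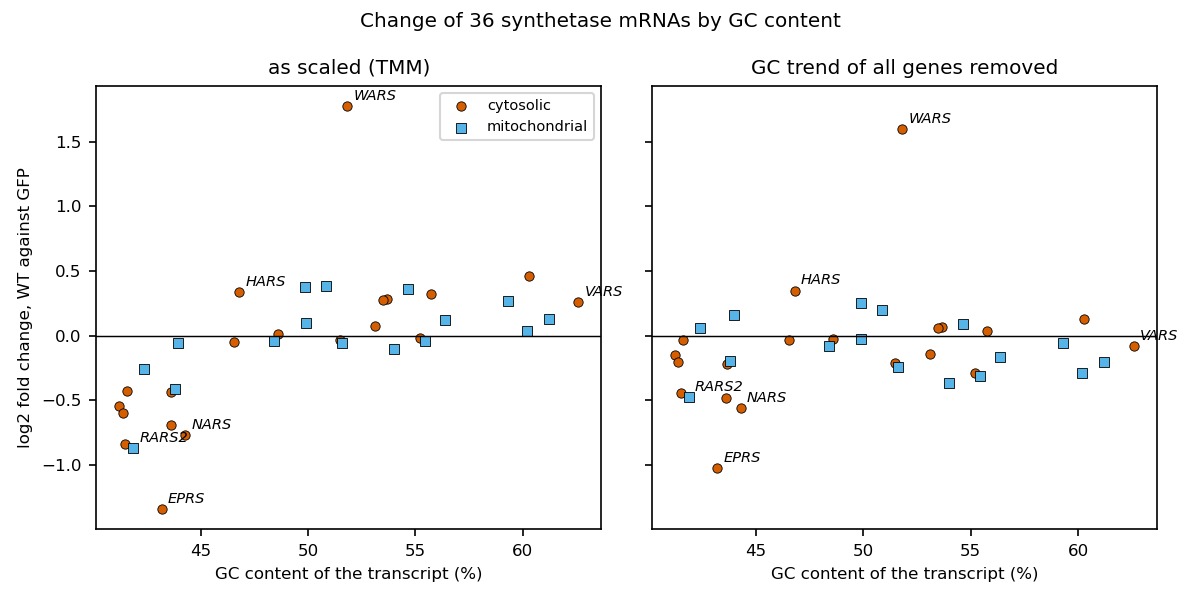
Log2 fold change of WT against GFP (y axis) against the GC content of the transcript in percent (x axis) for 20 cytosolic (circles) and 16 mitochondrial (squares) synthetases, as scaled on the left and with the GC trend of all genes removed on the right. WARS stays at the top, at 1.78 and 1.60, and EPRS at the bottom, at -1.34 and -1.02.

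The summed share of all counts that fell on the 36 genes was 0.667% ± 0.00757 (SD, n = 3) in the GFP libraries, 0.616% ± 0.0103 in WT, 0.665% ± 0.00634 in Mut_IDR3 and 0.662% ± 0.0136 in dIDR3. The 3 WT libraries, at 0.606% to 0.626%, lay below the 9 others on these raw shares. The shares do not use the TMM factors of the CPM values, which were 0.953 to 0.967 in WT and 1.01 to 1.03 in GFP. A lower factor raises a level on the CPM scale, and this separation did not hold there. Divided by its factor, the share of dIDR3 replicate 3 (0.654%, factor 1.02) lay below that of WT replicate 3 (0.617%, factor 0.953). The cytosolic genes held 0.548% ± 0.00588 with GFP and 0.515% ± 0.00803 with WT, and the mitochondrial genes 0.119% ± 0.00169 and 0.102% ± 0.00269. An exact permutation test of 3 against 3 libraries cannot give a p below 0.1, so none was made on these sums. Per length with GFP, KARS was the most abundant member at 223 ± 3.93 RPKM, followed by SARS at 183 ± 5.06, IARS2 at 154 ± 0.379 and MARS at 141 ± 1.95. AARS2 was the lowest at 3.81 ± 0.113 RPKM, next to PARS2 at 4.47 ± 0.414. EPRS went from 90 ± 5.58 to 35.5 ± 6.28 RPKM with WT.

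Synthetases fall into 2 structural classes with unrelated catalytic folds. With WT against GFP, 5 of the 18 class I members were higher and 6 lower (median 0.01), and 6 of the 17 class II members were higher and 4 lower (median -0.03), where 27.7% of all genes were higher and 27.1% lower. With the GC trend removed, 2 of class I were higher and 10 lower (median -0.15) and 3 of class II were higher and 6 lower (median -0.04), beside 24% and 23.4%. EPRS joins a domain of each class and is in neither list. Of the 8 enzymes of the multisynthetase complex, 5 fell with WT (EPRS, LARS, RARS, DARS and IARS), MARS rose, and KARS and QARS were not called, beside 27.1% of all genes lower and 27.7% higher. The median of the 8 was -0.49 as scaled and -0.21 with the GC trend removed, where 0 were higher and 6 lower beside 24% and 23.4% of all genes. Against WT, 5 of the 8 were higher and 0 lower with Mut_IDR3, beside 23.2% and 20.9% of all genes, and 6 were higher and MARS was lower with dIDR3, beside 27.2% and 25%. The scaffold AIMP1 had 59.4 ± 2.58 CPM with GFP and 34 ± 3.82 with WT, a change of -0.81 (adjusted p = 1.55e-06). EEF1E1 changed by -0.52 (adjusted p = 4.22e-05) and AIMP2 was at -0.04 (adjusted p = 0.681). The falls of AIMP1 and EEF1E1 were no longer called with the GC trend removed, at -0.12 (adjusted p = 0.0679) and 0.18 (adjusted p = 0.068), while AIMP2 was then called lower, at -0.22 (adjusted p = 0.00729).

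The altered forms, whose TFAP2B RNA was 702 and 704 CPM, differed from each other in 9 members. CARS, the cysteine enzyme, was higher with Mut_IDR3 than with dIDR3 by 0.32 (SE 0.05, adjusted p = 0.0013). It had 182, 182 and 188 CPM in the GFP libraries, 197, 191 and 195 in WT, 192, 210.4 and 195 in Mut_IDR3 and 164, 150.1 and 164 in dIDR3, and the 3 dIDR3 libraries were below all others. SARS was higher by 0.31 (SE 0.05, adjusted p = 0.00137) and had 335, 354 and 344 CPM in the GFP libraries, 323, 358 and 328 in WT, 356, 361 and 348 in Mut_IDR3 and 298, 278 and 280.5 in dIDR3; again the dIDR3 libraries were the lowest. YARS, GARS (the glycine enzyme) and MARS were higher by 0.24 (adjusted p = 0.00253), 0.19 (adjusted p = 0.0143) and 0.18 (adjusted p = 0.0201). GARS had 352, 351 and 360.0 CPM in the GFP libraries, 358, 376 and 341 in WT, 413, 409 and 415 in Mut_IDR3 and 366, 362 and 359 in dIDR3, so that the Mut_IDR3 libraries were above all others. Besides MARS2, RARS at -0.30 (adjusted p = 0.00576), HARS at -0.22 (adjusted p = 0.0145) and TARS at -0.27 (adjusted p = 0.0392) were lower with Mut_IDR3 than with dIDR3. The call for TARS was lost when any of the 6 libraries was left out, at -0.30 to -0.21 (adjusted p = 0.0597 to 0.182). The call for HARS was lost without replicate 1 or 3 of either form, at -0.22 to -0.17 (adjusted p = 0.0542 to 0.0963). The call for MARS was lost without Mut_IDR3 replicate 2 or dIDR3 replicate 2 or 3, at 0.16 to 0.19 (adjusted p = 0.0523 to 0.0948). The call for GARS was lost without replicate 3 of either form, at 0.18 to 0.19 (adjusted p = 0.0543 to 0.0566).

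All 5 members that were higher with Mut_IDR3 than with dIDR3 are among the 11 synthetases described as ATF4 responsive (AARS, CARS, EPRS, GARS, IARS, MARS, NARS, SARS, TARS, WARS and YARS); 1 of these 11, TARS, was lower. The 11 had a median log2 fold change of 0.15. Of the other 9 cytosolic members 0 were higher and 2 lower, with a median of -0.16, and of the 16 mitochondrial members 0 were higher and 1 lower, with a median of -0.04. Of all tested genes 5.54% were higher and 5.24% lower, with a median of -0.01. That the members called higher were all on the ATF4 list depended on the setting. QARS at 0.16 (adjusted p = 0.102) and TARS2 at 0.20 (adjusted p = 0.0526), neither on that list, were called higher by DESeq2, with upper-quartile scaling and in the fit of only the 2 groups. TARS2 was also called with median-ratio scaling and limma-voom, and VARS2 in the fit of only the 2 groups. Of 28 genes of the GCN2 and ATF4 response, 16 were higher with Mut_IDR3 and 0 lower, with a median of 0.27. Among them ASNS, asparagine synthetase, went from 212 ± 7.95 CPM with dIDR3 to 279 ± 6.09 with Mut_IDR3, at 0.39 (adjusted p = 0.000687). PYCR1, a proline synthesis enzyme, was at 0.55 (adjusted p = 0.000943), the amino acid transporter SLC1A4 at 0.46 (adjusted p = 0.00129) and the transcription factor ATF3 at 0.46 (adjusted p = 0.00129). ATF4 itself was at 0.25 (adjusted p = 0.00464). The counts of these 28 were the same with the GC trend removed, and the 5 synthetases stayed higher. Exons of MARS share 355 bases with the opposite-strand DDIT3, a gene of the same response with 5137 counts over all libraries against 201799 for MARS.

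**Figure D5:**
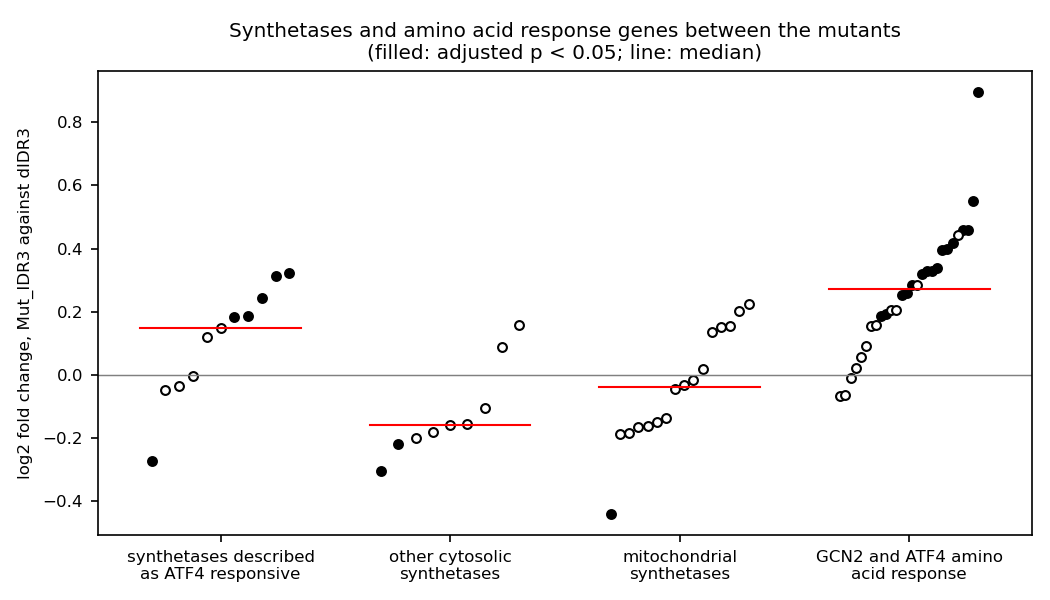
Log2 fold change of Mut_IDR3 against dIDR3 (y axis) for 4 gene groups (x axis), 1 point a gene, filled where adjusted p was under 0.05, with the median as a red line. The medians are 0.15 for the synthetases described as ATF4 responsive, -0.16 for the other cytosolic ones, -0.04 for the mitochondrial ones and 0.27 for the amino acid response genes.

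ATF4 with a partner binds a composite element in amino acid response genes, searched here as TGATGNAA. It was in 8 of the 39 member promoters (20.5%), in 3.62% of all 35116 promoters and in 2.69% of coding ones. It was in none of the 3 other members described as ATF4 responsive that had a promoter in the table, EPRS, SARS and WARS. The matches of NARS and TARS lay after the start site, and those of CARS and MARS spanned it. The 8 matches are printed because most of their genes are on the ATF4 list, with the motif in capitals on the strand of the gene (TTGCATCA or TTTCATCA is the motif on the other strand).
AARS, chr16:70289676-70289703: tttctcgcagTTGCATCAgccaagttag
CARS, chr11:3057408-3057435: ggggcggcggTTGCATCAgattctagga
GARS, chr7:30594835-30594862: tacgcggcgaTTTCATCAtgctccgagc
IARS, chr9:92293693-92293720: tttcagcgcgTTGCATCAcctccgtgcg
MARS, chr12:57488054-57488081: ccggttccggTTGCATCAgcgagggatt
NARS, chr18:57621805-57621832: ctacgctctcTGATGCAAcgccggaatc
TARS, chr5:33440957-33440984: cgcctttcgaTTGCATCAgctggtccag
YARS2, chr12:32756077-32756104: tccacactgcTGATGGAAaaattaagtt

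The genes that carry these letters were called in both directions. With WT against GFP, AARS and MARS were higher and IARS, NARS and TARS were lower, beside 27.7% of all genes higher and 27.1% lower. CARS at 0.08, GARS at 0.02 and YARS2 at 0.10 were not called. Between the altered forms, CARS, GARS and MARS were higher with Mut_IDR3 and TARS was lower, beside 5.54% of all genes higher and 5.24% lower. AARS at 0.12, IARS at -0.00366, NARS at -0.05 and YARS2 at -0.15 were not called.

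The wider pathway was described with lists of genes around the synthetases. Of the 28 amino acid response genes, 15 were higher and 4 lower with WT against GFP (median 0.19), beside 27.7% and 27.1% of all genes; the same shares apply to the next lists. ATF3 was at 1.82 (adjusted p = 8.91e-11), TRIB3, an inhibitor of ATF4, at 0.74 (adjusted p = 4.83e-07) and PHGDH, the first enzyme of serine synthesis, at 0.68 (adjusted p = 2.11e-07). SLC7A5, a transporter of leucine and other large amino acids, was lower at -0.94 (adjusted p = 3.60e-08). With the GC trend removed 13 were higher and 8 lower (median 0.07), beside 24% and 23.4%. With dIDR3 against WT, 4 were higher and 16 lower, beside 27.2% and 25%.

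Of the 7 cytosolic elongation genes, 4 were higher and 1 lower with WT against GFP, and with the GC trend removed 1 was higher and 3 lower. EIF5A, which helps ribosomes through stretches such as polyproline, was at 0.48 (adjusted p = 2.44e-06), and EEF1G, a subunit of the exchange factor of EEF1A, at 0.33 (adjusted p = 3.31e-05). Of the 13 mitochondrial translation factors, 1 was higher and 7 lower, with a median of -0.25, and 2 were higher and 3 lower, with a median of -0.10, with the GC trend removed. MTIF2, the mitochondrial initiation factor 2, was at -1.17 (adjusted p = 1.91e-08), and TUFM, the mitochondrial elongation factor that carries charged tRNA, was at 0.54 (adjusted p = 3.66e-07). Of 28 genes of tRNA maturation and export, 9 were higher and 7 lower, or 6 and 7 with the GC trend removed. TSEN34, a subunit of the endonuclease that splices tRNA, was at 0.71 (adjusted p = 5.52e-08), and XPOT, the tRNA exporter, was at -0.50 (adjusted p = 4.04e-06). Of 20 genes of RNA polymerase III, which transcribes tRNA, and its regulators, 6 were higher and 5 lower, or 5 and 6 with the GC trend removed. GTF3C3, a subunit of the factor that recognises tRNA genes, was at -0.84 (adjusted p = 7.94e-08) and the polymerase subunit POLR3D at 0.67 (adjusted p = 1.41e-06). XPOT and EEF1G were no longer called with the GC trend removed, and GTF3C3 was at -0.24 (adjusted p = 0.00571).

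Other members also share exonic bases with neighbours, which makes their counts uncertain where the counting could not separate the genes. VARS2 shares 1858 bases with GTF2H4 on the same strand, 22% of its exonic length. GTF2H4 held 35156 counts over all libraries against 27605 for VARS2. HARS2 shares 152 bases with ZMAT2 on the same strand, where ZMAT2 held 17338 counts over all libraries against 23364 for HARS2. HARS shares 221 bases with WDR55 on the opposite strand, which held 32584 counts against 86876 for HARS. SARS2 shares 1492 bases, 46.2% of its exonic length, with AC011455.2 on the same strand, which held 0 counts in these libraries. SARS2 also shares 349 with MRPS12, YARS 396 with S100PBP, EARS2 370 with UBFD1, CARS2 326 with ING1, KARS 176 with TERF2IP and AARS2 235 with TMEM151B, these all on the opposite strand. MRPS12 held 49521 counts against 15849 for SARS2, and UBFD1 51838 against 25569 for EARS2. S100PBP, ING1, TERF2IP and TMEM151B each held fewer counts than the member they overlap.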

How the data were processed

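RNA from 12 KYSE150 libraries was sequenced after SMARTer mRNA library preparation, per the labels' protocols. The authors deposited 1 table of counts per gene, whole numbers that are not normalized. Trim Galore, HISAT2 and StringTie with the build GRCh38 (hg38) are named, without versions, in the submitters' processing notes; the counting step and its strand setting are not given in the sources used here. Of the 24302 features, 4328 are unnamed NewGene loci. Symbols, coordinates, lengths and GC content come from the GENCODE annotation of GRCh38, matched by Ensembl ID.

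Counts were tested with edgeR 4.0.16 in R 4.3.3 (quasi-likelihood F test, filterByExpr, TMM scaling, all 4 groups in 1 fit with 8 residual degrees of freedom, Benjamini-Hochberg over 14792 genes). CPM values use TMM library sizes, and RPKM divides them by the longest coding transcript. The alternatives were DESeq2 1.42.0, scaling by upper quartile or by median ratio, the fit without a filter on low counts, limma-voom (limma 3.58.1), only the 2 groups compared, a replicate block, a minimum fold of 1.5, each library left out, and removal of the GC trend over 20 GC bins of genes at 1 CPM or more, with unnamed loci uncorrected. The test was checked on simulated counts. Promoters came from RefSeq on GRCh38.p14, matched by current symbol; protein sequences were not used here. The members and all lists were chosen with earlier results of these data known. Full values are given for WARS, for members called in WT against GFP and oppositely in an altered form against WT, and for the 3 largest rises and falls per compartment; of each other list, up to 4 members with the lowest adjusted p qualified. CARS, SARS, GARS and MARS2 were given in full after their values were seen. ATF4 was named in the same way.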

Additional observations from a re-analysis of the deposited data

How the results depend on the processing

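In the order WT, Mut_IDR3 and dIDR3 against GFP, Mut_IDR3 and dIDR3 against WT, and Mut_IDR3 against dIDR3, the numbers of members called were 22, 10, 12, 19, 23 and 9. Of these, 7, 0, 1, 4, 8 and 0 had an estimated fold of at least 1.5, a cut on the estimate and not a test of fold size. With the GC trend removed, 5 were called in Mut_IDR3 against GFP and 15 in Mut_IDR3 against dIDR3, and in the latter DESeq2 called 14 and the fit of only the 2 groups 18. Leaving out 1 library gave 20 to 23, 5 to 10, 9 to 12, 16 to 21, 21 to 25 and 5 to 7. Mut_IDR3 against GFP had 5 calls without GFP replicate 3 or without Mut_IDR3 replicate 2, and Mut_IDR3 against dIDR3 had 5 without dIDR3 replicate 3. Among values called in either setting, signs turned only with the GC trend removed. Log2 fold changes with WT against GFP were then -0.14 for CARS, -0.0778 for VARS, -0.0529 for AARS2, -0.16 for CARS2, -0.29 for VARS2 and 0.0575 for WARS2. CARS2 was at 0.15 with Mut_IDR3 against WT, and FARSA, VARS and SARS2 were at 0.29, 0.28 and 0.22 with dIDR3 against WT. The trend over GC content was what that setting takes out; the cause of the trend was not tested. Of 18 same-numbered pairs of libraries, 0 correlated above 0.1, which cannot show whether the replicate numbers mark a shared culture or day. The replicate block gave 21, 10, 10, 18, 23 and 8 calls. Depth limits PARS2 and AARS2 most, with 303 to 468 and 449 to 837 counts a library.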
